A study of Sus scrofa with 4 samples.

Results

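The spleen removes old red cells from the blood and returns their iron, and 8 genes of that task were read here in pig spleen: HMOX1, FTH1, FTL, TF, TFRC, HP, CP and HAMP. They were chosen by name, and every array probe whose transcript identifier belongs to a RefSeq transcript of these genes was read on every array. That gave 31 probes of the 33464 tested, for 9 of the 2746 named gene records with a tested probe. RefSeq holds 2 gene records under the symbol TF, and the other record carries the synonym PICA, a transferrin homologue named porcine inhibitor of carbonic anhydrase. The PICA record is given apart, so that values are given for 9 gene records.

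Spleen RNA of Minnesota miniature swine was hybridised to 4 one-colour porcine oligonucleotide arrays. The WT group held 3 arrays of wild-type pigs, and the KO group held 1 array of an IL2RG +/- pig. The study disrupted a copy of IL2RG, which encodes a receptor chain common to several interleukins, with TALEN nucleases in cultured cells and produced pigs from such cells by nuclear transfer, so KO pigs are clones, and the KO group here is a single array. The study writes of profiling more than 1 KO pig, each of which had kept a thymus. The labels give no age, sex or relation between animals and do not say whether an array held RNA of 1 animal or of a pool, and nothing says how the WT pigs were bred.

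Macrophages of the splenic red pulp take up old red cells and break down their haemoglobin. Heme oxygenase opens the heme ring and frees its iron, which is stored in ferritin or leaves the cell through the exporter ferroportin, is oxidised by ceruloplasmin and binds transferrin in plasma. Cells that need iron, above all erythroid precursors, take up transferrin through its receptor. Haptoglobin captures haemoglobin that has leaked from red cells, and hepcidin, a peptide hormone made mainly in the liver, closes the exporter. The spleen of a young or anaemic pig can also hold erythroid precursors.

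Values are log2 signals after background correction, minus the 75th percentile of the array, so that 0 marks that percentile and a difference of 1 is 2-fold. Where a gene had several probes the brightest stood for it, and the level of a probe is compared only with the same probe on other arrays. Between 66.1% and 72.7% of spots lay well above background, no spot was saturated, and all 31 probes of the iron genes were well above background on all 4 arrays. KO shared slide 1 with WT 1, the other WT arrays lay on slide 2, and scan date followed the slide, so each gene is given with its difference between KO and WT 1, the pair on the same slide. The targeted gene read lowest on KO with both probes of IL2RG, at -1.98 against -1.49 to -0.64 on WT arrays and at -3.95 against -2.18 to -1.18, without passing the test. Of measured macrophage markers 12 of 12, and of B cell markers 2 of 2, were well above background on every array. All measured T cell, erythroid and granulocyte markers were too, so this detection does not check the spleen label.

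The comparison of KO with WT asked whether loss of a copy of IL2RG went with another level of the iron genes in spleen. HMOX1, FTH1 and FTL read higher on the KO array than on any WT array, by 1.27-fold to 1.79-fold over the WT mean, although the brightest FTH1 probe lost this under quantile normalisation. TFRC read lower on KO than on any WT array, 6.59-fold below the WT mean. TF, HP, CP, HAMP and the PICA record lay within the WT range, and in these genes WT spleens differed from each other by 4.02-fold to 38.5-fold. None passed the test, which had 1 KO array and only the 3 WT arrays to measure spread: limma called 0 of 9 gene records and 0 of 31 probes at an adjusted p of 0.05 with a 2-fold difference. Over all 33464 probes limma called 0 (0%) as well, although 3775 had an unadjusted p under 0.05.

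**Figure D1:**
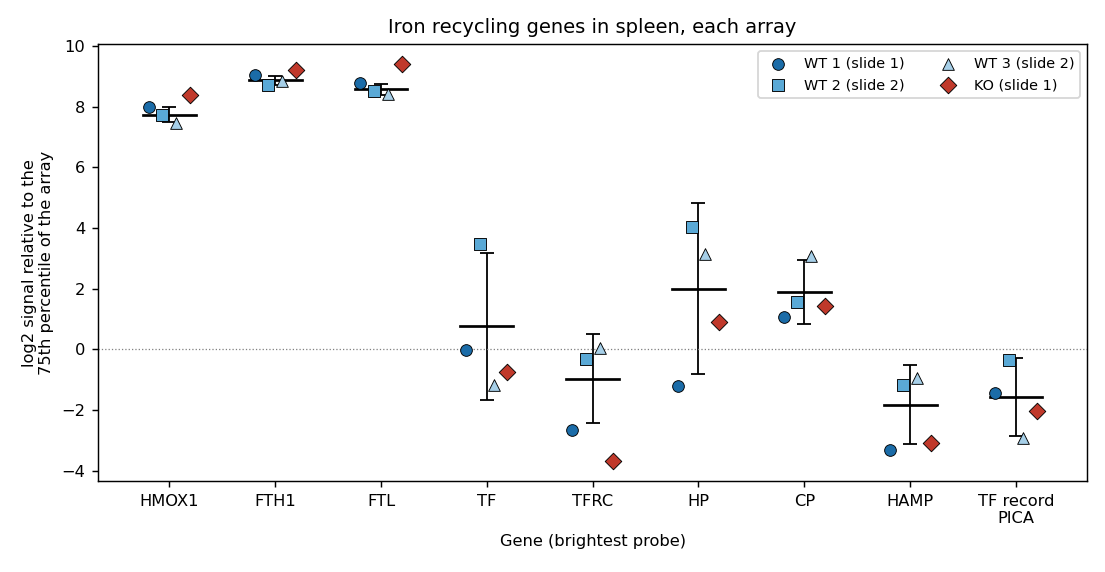
Each point is the log2 signal of a gene's brightest probe relative to the 75th percentile of 1 array (blue, WT 1 to 3; red, KO), with bars for the WT mean and SD (n = 3). HMOX1, FTH1 and FTL are tight with KO on top, TFRC has KO lowest at -3.69, and TF and HP spread over more than 4 log2 units among WT arrays.

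At an unadjusted p under 0.05, limma gave 1 of 9 gene records (FTL) and 3 of 31 probes, where 11.3% of all probes were, so the members did not stand out. The adjusted p of limma ran from 0.443 to 0.879 over the brightest probes. KO lay at least 2-fold above the WT mean for 0 of 9 gene records and 3 of 31 probes, where 7.71% of all probes did. KO lay at least 2-fold below it for 4 of 9 gene records (TF, TFRC, HP and HAMP) and 9 of 31 probes, where 13.4% of all probes did. KO stood above the whole WT range for 3 of 9 gene records and 14 of 31 probes, against 27% of all probes, and below it for 1 gene record and 1 probe, against 34.9%. The median difference over the 9 gene records was -0.47, beside -0.11 over all probes tested.

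HMOX1 encodes the inducible heme oxygenase, which frees iron from heme. Its signal was 7.97, 7.73 and 7.47 on WT 1 to 3 and 8.39 on KO. The KO array was the highest, and the WT arrays lay within 1.42-fold of each other. Over the WT arrays the mean was 7.73 ± 0.25 (SD, n = 3), and KO lay 0.66 above it (1.58-fold, SE 0.33, limma adjusted p = 0.529), with a 95% interval from -0.27 to 1.59. All 3 probes of HMOX1 put KO above every WT array, by 0.66, 0.70 and 1.35 over the WT mean. The dimmest of them read 4.37, 3.72 and 3.42 on WT 1 to 3 and 5.18 on KO. On slide 1, KO exceeded WT 1 by 0.41 to 0.82 over the 3 probes. HMOX2, the constitutive heme oxygenase, read 0.44 on KO and 0.03 to 1.27 on the WT arrays.

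FTH1 encodes the heavy chain of ferritin, the chain that oxidises iron as it enters the shell. The brightest of its 10 probes read 9.03, 8.71 and 8.84 on WT 1 to 3 and 9.20 on KO. KO was again the highest, only 0.17 above WT 1. WT arrays averaged 8.86 ± 0.16 (SD, n = 3), and the difference was 0.34 (1.27-fold, SE 0.29, limma adjusted p = 0.664). All 10 probes put KO above every WT array, by 0.34 to 1.05 over the WT mean, with limma adjusted p from 0.428 to 0.725. The probes target transcripts of the same gene and are no replicates of the condition. Under quantile normalisation 9 of 10 were higher on KO and 7 of 10 above the WT range, and the brightest probe showed no difference (-0.000155). A single probe of FTH1 departed among WT arrays, at 5.93 on WT 2 against 8.32 on WT 1 and 8.19 on WT 3. Ferritin chains have near-identical copies in mammalian genomes, so the signal may include transcripts of related copies.

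FTL encodes the light chain of ferritin, which favours formation of the mineral core. Its single probe read 8.76, 8.52 and 8.42 on WT 1 to 3 and 9.41 on KO. The WT spleens lay within 1.27-fold of each other and KO stood apart above them. The WT mean was 8.57 ± 0.18 (SD, n = 3), and KO exceeded it by 0.84 (1.79-fold, SE 0.30, limma adjusted p = 0.443), with a 95% interval from 0.01 to 1.67. KO exceeded WT 1 on the same slide by 0.64.

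Probes at the bright end of the array leaned upward on KO, and HMOX1, FTH1 and FTL belong there. Among the 810 probes with a mean log2 signal of at least 6, KO stood above the WT range for 35.8%, and their median difference was 0.13. All 3 genes and 13 of 13 of their probes in that class stood above it. Under quantile normalisation the same bright probes had a median difference of -0.07 and 25.6% stood above the WT range, while HMOX1 and FTL kept 0.46 and 0.58 above the WT mean. For the brightest probes of all 3 genes, WT 1 was the highest WT array, so that both slide 1 arrays were higher than both slide 2 arrays. Some other FTH1 probes did not show this order, such as 1 at 8.21, 8.29 and 8.18 on WT 1 to 3. The share of all probes with this order is not given, so whether the order is unusual cannot be said. The opposite order, with slide 1 arrays both below slide 2 arrays, held for 34.4% of all probes.

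**Figure D2:**
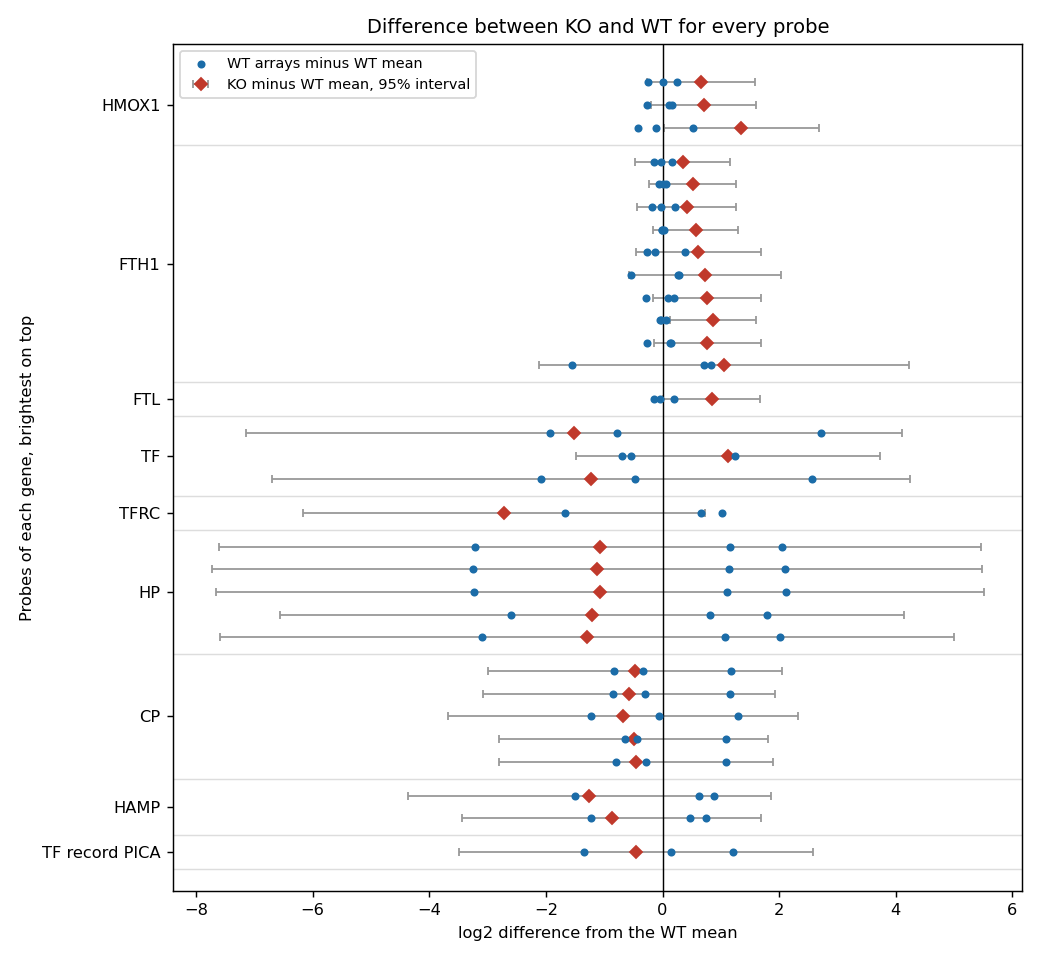
Each row is 1 probe, with the KO minus WT mean difference in log2 and its 95% interval from limma (red diamond and bar) and the 3 WT arrays minus their mean (blue). The probes of HMOX1 and FTH1 and the FTL probe lie right of 0 with KO beyond every WT array, whereas the intervals of all HP probes and of 2 TF probes reach past 4 log2 units on both sides.

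Genes that mark macrophages were also higher on KO. All 12 of 12 measured markers, of 16 listed, were higher on KO than the WT mean, 11 stood above every WT array, and the median difference was 1.61, with 0 called by limma and 5 at an unadjusted p under 0.05. Their summed signal, in units of the 75th percentile of the array, was 1165, 697 and 629 on WT 1 to 3 and 1729 on KO, and no marker was below background on any array. The order of the arrays for that sum, KO then WT 1, WT 2 and WT 3, was also that of HMOX1 and FTL. A sum weighs the brightest genes most, and single markers differed in order. C1QB and CD5L, among others, had the order of the sum. CD163 was lowest on WT 1, at 3.46 against 4.82 and 4.66 on WT 2 and WT 3. SIGLEC1 was highest on WT 1, at -0.54 against -0.58 on KO. C1QA and CD14 read higher on WT 3 than on WT 2. CD14, MRC1, FCGR1A and SIRPA, surface receptors of the list, stood at least 2-fold above every WT array, at 3.08, 3.25, 3.89 and 1.32 over the WT mean. The complement genes C1QA, C1QB and C1QC, made by tissue macrophages, were 0.99, 0.71 and 1.00 above the WT mean on KO. CD5L, a secreted protein of tissue macrophages, read 8.02, 4.89 and 3.43 on WT 1 to 3 and 8.46 on KO. The part of these markers in the higher HMOX1 and ferritin signals was not tested. Markers of other cells of the spleen moved beside them: the B cell genes CD79A and MS4A1 differed by -4.12 and -4.92 (summed signal 4.34, 2.29 and 2.92 on WT 1 to 3 and 0.13 on KO, 0 of 2 called). Of 6 measured T cell genes 5 were higher and 1 lower on KO than the WT mean. CD4, CD8A and CD2 stood above every WT array, at 1.73, 1.78 and 1.58 over the WT mean. CD3D, CD3E and CD3G lay within the WT range. Of 4 measured stromal genes 1 was higher (CCL19, 1.03) and 3 were lower, with CCL21 at -2.18, VWF at -2.76 and PECAM1 at -0.01. Of 9 measured hepatocyte genes 6 were higher and 3 lower, and APOA1, at -1.84, was the one outside the WT range. CD79A, MS4A1, CD4, CCL21, VWF and APOA1 lay at least 2-fold outside that range, and limma called 0 genes of these lists. In bulk spleen, more or fewer cells of a type and more or less RNA per cell cannot be told apart.

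TFRC encodes the transferrin receptor, through which cells take up iron bound to transferrin. Its single probe read -2.65, -0.32 and 0.05 on WT 1 to 3 and -3.69 on KO. The arrays split by slide, with both slide 1 arrays below both slide 2 arrays, and KO was the lowest. Over the WT arrays the mean was -0.97 ± 1.46 (SD, n = 3), and KO lay 2.72 below it (difference -2.72, SE 1.23, 6.59-fold, limma adjusted p = 0.499). Against WT 1 alone the difference was -1.04. Against the mean of WT 2 and WT 3, WT 1 lay at -2.52 (5.72-fold lower) and KO at -3.56.

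Erythroid genes showed the same split. KLF1, a transcription factor of erythroid cells, read -4.68, 4.06 and 4.38 on WT 1 to 3 and -3.17 on KO. EPOR, the erythropoietin receptor, read 0.24, 2.67 and 3.59 on WT 1 to 3 and -0.16 on KO. Both genes separated the arrays as TFRC did, although on the brightest probes only EPOR shared with it a KO value below every WT array. The other KLF1 probe read -8.07 on KO and -7.74 on WT 1, but was well above background on only 2 arrays. HBE1, another listed marker, read -1.36, 2.80 and 2.53 on WT 1 to 3 and 0.67 on KO. It split by slide too, with KO 2.03 above WT 1. Over the 3 of 15 listed erythroid markers with a named probe, all well above background on every array, the summed signal was 1.61, 30.0 and 38.7 on WT 1 to 3 and 2.60 on KO. The heme synthesis enzyme UROS followed them and read 3.81, 6.86 and 7.06 on WT 1 to 3 and 4.14 on KO. The KO minus WT difference of UROS was -1.77, whereas the KO minus WT 1 difference was 0.33. Whether the erythroid content of the spleens set the TFRC signal was not tested.

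Slide 1 arrays were both below slide 2 arrays for 4 of 9 gene records (TFRC, HP, CP and HAMP) and 13 of 31 probes, where 34.4% of all probes were. The slide cannot be told apart from differences between the animals it carried, since slide 2 held WT spleens only.

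TF encodes transferrin, the iron carrier of plasma, made mainly by hepatocytes. Its brightest probe read -0.02, 3.48 and -1.17 on WT 1 to 3 and -0.76 on KO. WT 2 stood 16.8-fold above the mean of the other WT arrays, and KO lay between WT 1 and WT 3. WT arrays averaged 0.76 ± 2.42 (SD, n = 3), and the difference of -1.52 (SE 2.01, limma adjusted p = 0.771) was smaller than the SD among WT arrays. Without WT 2 it was -0.16, and without WT 3 it was -2.49. Another probe of TF had the same shape, at -2.41, 0.61 and -4.04 on WT 1 to 3 and -3.18 on KO. The remaining probe read -3.13, -1.18 and -2.97 on WT 1 to 3 and -1.31 on KO, so that probes of the gene differed in sign, at 1.12 against -1.52 and -1.23. The PICA record, with 1 probe, read -1.43, -0.37 and -2.91 on WT 1 to 3 and -2.02 on KO, a difference of -0.45 (SE 1.08, limma adjusted p = 0.879). WT 2 was its highest array too. TF and PICA are related in sequence, and whether their probes share transcripts was not tested.

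Most measured hepatocyte markers were also highest on WT 2. ALB, the gene of albumin, read -6.42, 2.60 and -5.05 on WT 1 to 3 and -1.64 on KO. TTR, the gene of transthyretin, read -7.78, 2.37 and -6.20 on WT 1 to 3 and -3.77 on KO. Both put WT 2 far above the other arrays and KO next. HPX, the gene of the heme carrier hemopexin, read -2.03, 1.95 and -3.64 on WT 1 to 3 and -2.42 on KO, the order of TF itself. Of 13 listed hepatocyte markers 9 had a named probe, and 4, 9, 6 and 9 of these were well above background on WT 1, WT 2, WT 3 and KO. Their summed signal was 10.6, 36.6 and 16.2 on WT 1 to 3 and 7.46 on KO. The sum was highest on WT 2, as TF was. On WT 1, WT 3 and KO it came mostly from APOA1 and APOA2. APOA1 was highest on WT 3, at 2.80, 3.44 and 3.62 on WT 1 to 3 and 1.45 on KO. The part of hepatocyte transcripts in the TF signal was not tested.

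HP encodes haptoglobin, the plasma protein that binds free haemoglobin and hands it to the receptor CD163. Its brightest probe read -1.22, 4.04 and 3.16 on WT 1 to 3 and 0.91 on KO. WT 1 and WT 2 differed by 38.5-fold, the widest WT span among the iron genes, and KO fell between WT 1 and the slide 2 arrays. The WT mean was 1.99 ± 2.82 (SD, n = 3), and the difference was -1.08 (SE 2.34, limma adjusted p = 0.864). It was -2.69 without WT 1, -0.05 without WT 2 and -0.50 without WT 3. All 5 probes gave the same order of arrays, with differences from -1.30 to -1.07. Within slide 1 the sign turned, and KO exceeded WT 1 by 1.39 to 2.16 over the 5 probes.

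Haptoglobin is made by the liver and also stored in granulocytes, and granulocyte markers varied over the same arrays. S100A8, a calcium-binding protein of neutrophils, read -1.17, 2.53 and 5.21 on WT 1 to 3 and 2.01 on KO. LTF, the gene of the iron-binding granule protein lactoferrin, read -2.36, 2.03 and 4.55 on WT 1 to 3 and -0.16 on KO. WT 1 was the lowest for both, as for HP, but WT 3 and not WT 2 was the highest. MMP9, a marker of the same list, went the other way and read 1.00, 0.20 and 0.58 on WT 1 to 3 and 1.66 on KO. The summed signal of the 5 measured granulocyte markers, of 12 listed and all well above background on every array, was 3.27, 16.9 and 101 on WT 1 to 3 and 15.8 on KO. Their part in the HP signal was not tested.

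**Figure D3:**
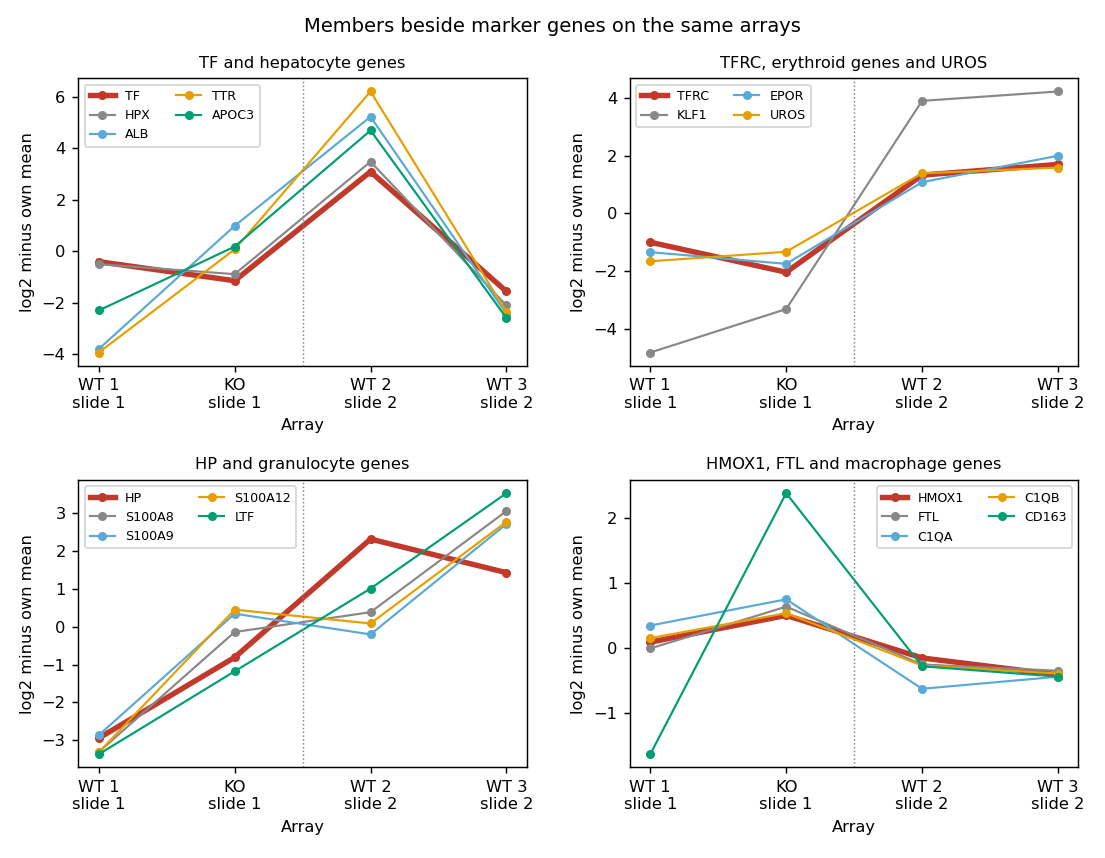
Each panel plots the log2 signal of an iron gene (thick red) and of marker genes minus the gene's own mean over the 4 arrays, with slide 1 left and slide 2 right of the dotted line and lines only joining points of a gene. TF peaks on WT 2 with the hepatocyte genes plotted, and TFRC is low on both slide 1 arrays with the erythroid genes plotted. HP is lowest on WT 1 with the granulocyte genes plotted, which leave out MMP9.

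CP encodes ceruloplasmin, the copper enzyme that oxidises iron so that transferrin can bind it. Its brightest probe read 1.05, 1.55 and 3.06 on WT 1 to 3 and 1.41 on KO. KO lay between WT 1 and WT 2, and WT 3 stood 3.39-fold above the mean of the other WT arrays. Over the WT arrays the mean was 1.89 ± 1.05 (SD, n = 3), and the difference was -0.47 (SE 0.90, limma adjusted p = 0.841). It ran from -0.68 to -0.45 over the 5 probes. Without WT 3 the difference was 0.11, without WT 1 it was -0.89, and against WT 1 it was 0.36.

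HAMP encodes hepcidin, the hormone that closes the iron exporter. Its brightest probe read -3.33, -1.19 and -0.94 on WT 1 to 3 and -3.07 on KO. Both slide 1 arrays were low and both slide 2 arrays high, and KO stayed above WT 1. WT arrays averaged -1.82 ± 1.31 (SD, n = 3), and the difference was -1.25 (SE 1.11, limma adjusted p = 0.674), with -0.87 for the other probe. It was -2.01 without WT 1 and -0.82 without WT 3. Against WT 1 the differences were 0.25 and 0.35, of the opposite sign.

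The spread among WT spleens was thus wide for most of these genes. The WT arrays spanned at least 4-fold for 6 of 9 gene records (TF, TFRC, HP, CP, HAMP and PICA) and 14 of 31 probes, where 9.94% of all probes did. The median WT range was 5.23-fold over the gene records, and the narrow exceptions were HMOX1, FTH1 and FTL at 1.42-fold, 1.25-fold and 1.27-fold. HP, CP and HAMP are also genes of the acute phase response, in which liver and other cells react to inflammation. Of 14 listed acute phase genes 11 were measured, of which 6 were higher and 5 lower on KO than the WT mean, with 5 higher and 3 lower by at least 2-fold and 0 called by limma. SAA3, an acute phase serum amyloid, read -2.85, -3.91 and -4.20 on WT 1 to 3 and 5.97 on KO. The cytokine IL1B, the signal transducer STAT3 and its target SOCS3 also stood at least 2-fold beyond every WT array, at 3.81, 1.53 and 1.32 over the WT mean, whereas HP, CP and HAMP all lay within the WT range.

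Of the other genes that handle heme, CD163 and FLVCR2 differed most. The heme uptake and breakdown list had 7 of 11 genes measured, with 3 higher and 4 lower on KO, a median difference of -0.05 and 0 called by limma. CD163, the macrophage receptor for haptoglobin bound to haemoglobin, read 3.46, 4.82 and 4.66 on WT 1 to 3 and 7.48 on KO. KO stood above every WT array, 3.17 over the WT mean (SE 0.66, limma adjusted p = 0.387), and the 4 probes gave 3.17 to 4.18. FLVCR2, a membrane transporter related to the heme exporter FLVCR1, read 0.35, -0.08 and 0.11 on WT 1 to 3 and 2.04 on KO. Its 4 probes differed by 0.94 to 2.02, with a limma adjusted p of 0.330 for the brightest. Both stood above every WT array and above WT 1 on the same slide, by 4.02 for CD163 and 1.69 for FLVCR2. FLVCR1 itself differed by -0.05.

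**Figure D4:**
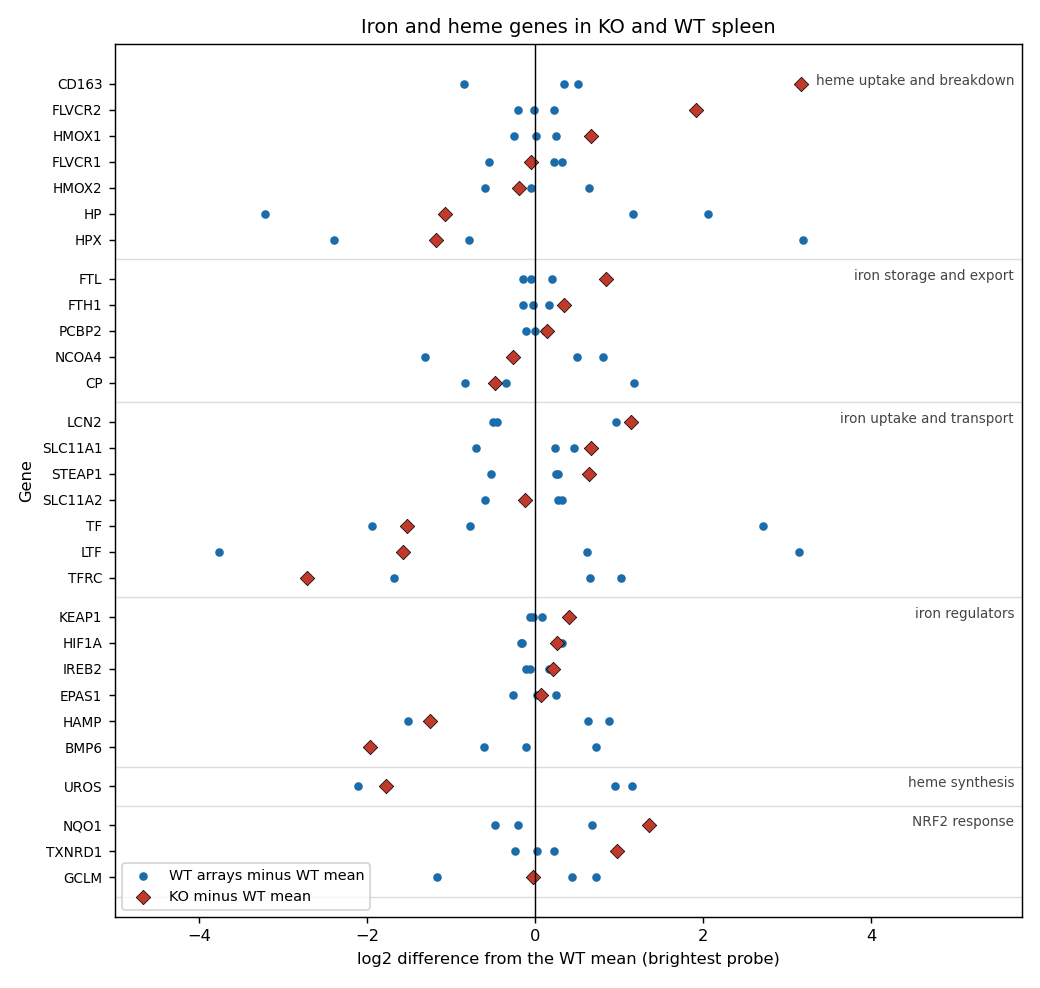
Points are KO (red) and the 3 WT arrays (blue) as log2 differences from the WT mean for each measured iron and heme gene, grouped by list. Among the KO points CD163 (3.17) and FLVCR2 (1.91) lie furthest right and TFRC (-2.72) furthest left, and the WT points of HP, HPX, TF and LTF are as widely spread as the KO differences.

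The storage and export list had 5 of 9 genes measured, with 3 higher and 2 lower on KO, a median difference of 0.14 and 0 called by limma. NCOA4, the receptor that delivers ferritin to lysosomes, read 1.06, 2.87 and 3.18 on WT 1 to 3 and 2.11 on KO. KO lay within the WT range and WT 1 was the lowest. The uptake and transport list had 7 of 15 genes measured, with 3 higher and 4 lower, a median of -0.12 and 0 called. SLC11A1, which moves iron out of the phagosome of macrophages, differed by 0.66 (SE 0.57) and stood above every WT array with its brightest probe. Its other probe differed by 0.30 and read 1.28 on KO, within the WT range of 0.49 to 1.35. The regulators had 6 of 17 genes measured, with 4 higher and 2 lower, a median of 0.14 and 0 called. IREB2, the iron regulatory protein that blocks ferritin translation and shields the TFRC message, differed by 0.21 (SE 0.29), and BMP6, an inducer of hepcidin, was well above background on WT 1 only, so that no fold is given. Of 3 of 8 measured targets of NRF2, the stress factor that also induces HMOX1 and the ferritins, TXNRD1 and NQO1 were higher by 0.97 and 1.35 and GCLM differed by -0.02, with 0 called by limma. The iron exporter SLC40A1, the other iron regulatory protein ACO1, the heme-sensing repressor BACH1 and NFE2L2, the gene of NRF2, were not analysed here.

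The genes most like each member over the 4 arrays were sought among 2434 named genes, by the root mean square difference of log2 values after each gene was centred on its own mean. For TF they were HPX (0.36) and VTN (0.41), both genes of plasma proteins. For TFRC they were NPY (0.26) and LOC396700 (0.27), and for HP they were ADRB1 (0.14) and UPK2 (0.19). CP lay closest to CELA2A (0.19) and CD9 (0.25), HAMP to ABO (0.05) and RSPH9 (0.10), and PICA to ANPEP (0.20) and XCL1 (0.24). The likeness rests on 4 arrays and describes these arrays only. HMOX1, FTH1 and FTL spanned less than 2-fold over all arrays and were not compared in this way.

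**Figure D5:**
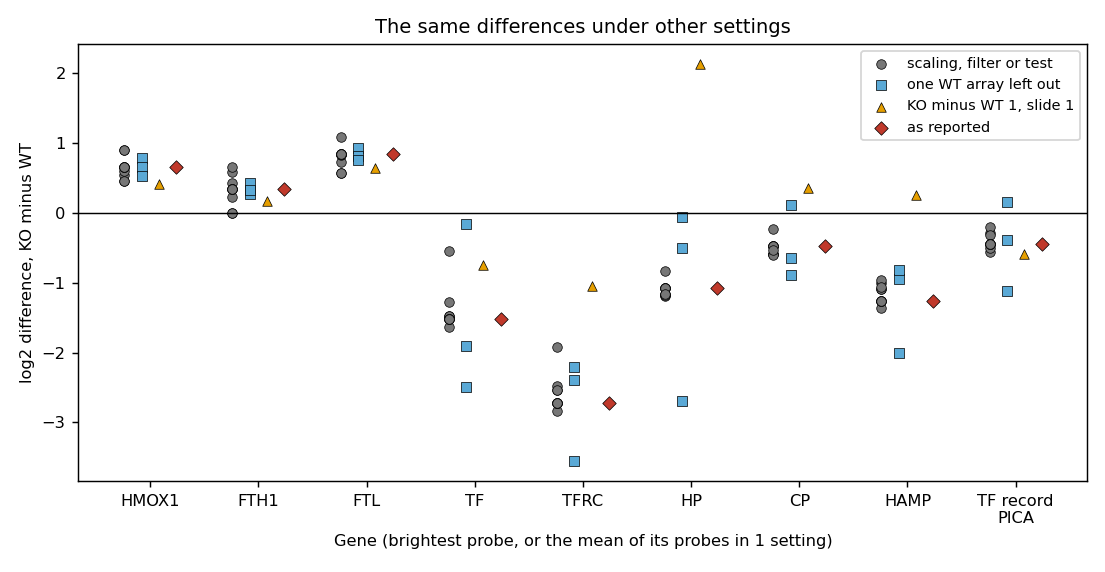
Points are the KO minus WT difference in log2 for each gene under other scalings, filters and tests (grey), with 1 WT array left out (blue), within slide 1 (orange triangles) and as reported (red). HMOX1 and FTL stay above 0 and TF and TFRC below it, whereas HP, CP and HAMP cross 0 within slide 1. The grey points of filters and tests repeat the reported difference by construction.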

How the data were processed

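Per the labels, total RNA of each spleen was amplified, labelled with Cy3 and hybridised to 1 array, and the authors read spot intensities, as deposited, with Feature Extraction 11.0.1.1. A dye pair is described in the study's methods, but the file headers list 1 channel. The 43803 spots of each array, other than controls, stood for 43603 probes, of which 28 were removed for outlier spots. The processed signal, corrected for background by that software, was scaled to the 75th percentile of each array and taken to log2, and spots of a probe were averaged. The log2 table deposited by the authors, used only as an alternative, correlated with the scanner values of its own array, and its columns had medians of 8.62, so its values were taken as normalised between arrays. The files give no gene symbol. Transcript accessions were matched without versions to RefSeq (Sscrofa11.1, names only), which named 6686 probes (15.3%) of 3025 genes. No build is named in the files, so no coordinates are given.

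Probes well above background on at least 1 array (33464) were tested two-sided by lmFit and eBayes of limma 3.58.1 (R 4.3.3), with Benjamini-Hochberg adjustment over all probes, 2 residual and 1.93 prior degrees of freedom, and the WT spread taken to hold for KO as well. An exact permutation test over 4 arrays cannot fall below 0.25, so no such p is given. The number of arrays limits the precision. The study states that tissues were collected at slaughter and says no more on how the WT spleens were sampled. The spread of the WT arrays may thus be partly technical. The WT numbers are those of the labels, and the KO label has none. The script was tested on simulated data. Python 3.11.15 with pandas 2.3.3 and matplotlib 3.10.9 served for reading and plotting.

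The genes and lists were chosen with earlier results of these data known. Of the lists, genes with a KO value outside the WT range by at least 2-fold were named, with SLC40A1, SLC11A1, CD163, ACO1, IREB2, BACH1, NFE2L2 and NCOA4 whatever their values and the 2 genes most like each member. HMOX2, FLVCR1, CCL19, PECAM1, the CD3 genes, KLF1, EPOR, UROS, ALB, TTR, APOA2, HPX, S100A8, LTF, MMP9, CD5L, TXNRD1, NQO1, GCLM and the C1Q genes were named after their values were seen. SIGLEC1, CD2, CD8A and HBE1 were too. Alternatives were other scalings, background corrections, filters, probes and tests, the slide as a block, and each WT array left out. Some genes of the lists are not reported here.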

Additional observations from a re-analysis of the deposited data

How the results depend on the processing

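No gene of the 9 records was called under any of the 15 alternatives run. HMOX1 (0.41 to 0.91), FTL (0.58 to 1.09), TF (-2.49 to -0.16) and TFRC (-3.56 to -1.04) kept the sign of the difference between KO and WT in all 15. The other filters, the trend and the t-test reuse the main signals, so in these the difference could not change. Nor could the mean of probes change it for FTL and TFRC, which have 1 probe each. For TF, a dimmer probe had the opposite sign, at 1.12. With the slide as a block the difference turned to 0.36 for CP, 0.25 for HAMP and 2.14 for HP, and 2 gene records differed by at least 2-fold in place of 4. FTH1 turned to -0.000155 under quantile normalisation and -0.0016 in the deposited table, whose normalisation method was not established. The other probes of FTH1 are given above. Leaving out 1 WT array moved CP from -0.89 to 0.11, the latter without WT 3, the PICA record from -1.12 (without WT 3) to 0.15 (without WT 2), HP from -2.69 (without WT 1) to -0.05 (without WT 2) and HAMP from -2.01 (without WT 1) to -0.82 (without WT 3). It moved the gene records at least 2-fold apart from 1 (without WT 2) to 4, and those outside the WT range from 4 to 7 (without WT 1). Over all probes limma called 4 after normexp background correction and 6 with a trend in the prior, none the brightest probe of an iron gene, and the methods' t-test gave 1333 before adjustment and 0 after it. The cause of these changes was not tested, apart from the block, whose coefficient is the KO minus WT 1 difference by construction. The median difference of all probes moved from -0.22 to 0.14 over the scalings, so small differences depend on the scaling. Normexp used median spot signals, an alternative chosen after the data were seen, since the mean signals planned for it were not used here. With the slide as a block, no WT range could be formed, as slide 1 held 1 WT array. No paired analysis was possible because the KO label carries no replicate number. Depth has no count here: the number of arrays and the background set what can be seen, and every probe of the iron genes was well above background.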
